A study of Mus musculus with 24 samples.

Results

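The genes described here build and serve the primary cilium. They were chosen by name: 37 symbols of intraflagellar transport (IFT) and ciliary gate genes, out of the 49568 gene symbols of the deposited count files, and all 37 passed the filter on low counts. By role they are 11 subunits of the IFT-B complex, 3 of the IFT-A complex, 2 of the IFT dynein motor, 6 of the BBSome, 2 chaperonin-like Bardet-Biedl genes, 12 genes of the transition zone and Arl13b, a small GTPase of the ciliary membrane.

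Most neurons and astrocytes of the adult brain carry a primary cilium, a short non-motile antenna that holds receptors and hedgehog signalling proteins. IFT-B trains driven by kinesin-2 carry cargo to the tip, IFT-A and cytoplasmic dynein-2 bring it back, the BBSome couples membrane receptors to the trains, and the transition zone is the gate at the base of the cilium. Ependymal cells and the epithelium of the choroid plexus carry many cilia each and use the same transport machinery, and motile cilia add dynein arms, radial spokes and a central apparatus that primary cilia lack.

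Whole hippocampus was taken from male mice on a C57-Bl/6J background at 12 weeks post natal. Wild-type (WT) mice and mice homozygous for an inactivating point mutation in the N-terminal kinase domain of MSK1, a nuclear kinase activated by mitogen and stress signals (MSK1 KD), had been kept in standard housing (SH) or reared from before birth in an enriched environment (EE) of large cages with a running wheel, toys and company. WT and MSK1 KD mice were bred as separate lines, so genotype and line cannot be told apart. Of the 24 libraries, 6 in each group, 33B and 34B failed the study's quality control, and the other 22 are compared here: 6 WT SH, 5 WT EE, 6 MSK1 KD SH and 5 MSK1 KD EE.

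The 22 libraries held between 8911999 and 56752074 counts on genes. The study left out 5 more for poor correlation within their group, namely library 2 of KD SH, library 9 of KD EE, library 12 of WT SH and the WT EE pair 31B and 35A, and results are also given for the remaining 17 where they differ. Levels are given in CPM, the count of a gene relative to the total of its library, scaled by the trimmed mean of M-values (TMM). Each of the 8 neuronal markers was detected in every library, with a summed level of 6251 to 7309 CPM. The 15 choroid plexus markers, none of them at 0 in any library, summed to a median of 82.4 CPM in WT SH (67.9 to 1942), 4258 in WT EE (66.1 to 5538), 144 in KD SH (47.5 to 3039) and 2331 in KD EE (227 to 5961). For the 14 ependymal markers, 1 of them at 0 in some library, the medians were 67.6, 90.4, 71.0 and 75.0 CPM in the same order, and the range over all libraries was 53.2 to 104. Libraries 31B and 35A held the lowest ependymal sums of the 22 (54.6 and 53.2 CPM), and library 2 the highest of KD SH (95.9 CPM). MSK1 itself (Rps6ka5) was at 24.9 ± 2.21 CPM in WT SH (SD, n = 6), 21.4 ± 1.92 in WT EE (n = 5), 25.4 ± 2.18 in KD SH (n = 6) and 23.6 ± 3.47 in KD EE (n = 5). Counts per gene do not show a point mutation, so these values do not check the genotype labels.

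Some promoters of these genes share a sequence feature that the choice of genes and the counts did not use. Regulatory factor X (RFX) proteins, which drive ciliary genes, bind the X-box, a pair of inverted arms around a short spacer. An entry in the RefSeq promoter table (GRCm38.p6; 250 bases before to 50 after the gene start) was found for 32 of the 37, the exceptions being Ift80, Ift81, Ift122, Dync2li1 and Tmem67. A pair of arms, GTNNCC and, after any 3 bases, GNAAC, was searched on both strands (N is any base). It occurred in 12 of the 32 promoters (37.5%), against 673 of 27025 promoters of the same length (2.49%). The single arm GTTGCC, which a paired match may contain, occurred in 18 of the 32 (56.25%) and in 14.14% of all promoters. By role, the paired letters were in 7 of 11 transition zone promoters, 3 of 6 BBSome promoters and 2 of 9 IFT-B promoters, and in none of the 2 IFT-A, 1 dynein, 2 chaperonin-like and 1 Arl13b promoters. For comparison, they were in 2 of 15 promoters of further IFT and motor genes, 2 of 14 of further BBSome and transition zone genes, 0 of 14 of ciliary receptor and hedgehog genes, 4 of 15 of motile axoneme genes, 2 of 12 of ependymal markers, and in none of the 6 of neuronal or 11 of choroid plexus markers. The matches of 8 members named in the results below are printed along the strand of the gene, with the bases of the match in capitals. The strand named is that of the gene. For Tctn2, Tmem216, Ift57 and the first match of Ift22 the paired letters are read on the opposite strand. Their capitals are thus the reverse complement of the letters searched.
Tctn2 (+ strand, chr5:124598679-124598708, match 62 bases before the start): gattggagGTTACCATGGCTACtggtcctc
Tctn1 (- strand, chr5:122264411-122264432, match within the bases after the start): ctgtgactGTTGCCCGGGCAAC
Mks1 (+ strand, chr11:87853183-87853212, match 24 bases before the start): gcgtctccGTTGCCAGGGGAACgaggcacc
Tmem216 (- strand, chr19:10555723-10555752, match within the bases after the start): tgtacgcaGTTTCCATGGGGACtgaacatg
Nphp4 (+ strand, chr4:152477903-152477932, match 231 bases before the start): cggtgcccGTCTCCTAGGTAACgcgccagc
Bbs4 (- strand, chr9:59353464-59353493, match within the bases after the start): ctcagctgGTCGCCCGGGAAACggtcggct
Ift57 (+ strand, chr16:49699199-49699228, match 87 bases before the start): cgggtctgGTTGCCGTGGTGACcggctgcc
Ift22, first match (+ strand, chr5:136908079-136908108, 63 bases before the start): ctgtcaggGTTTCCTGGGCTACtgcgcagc
Ift22, second match (+ strand, chr5:136908109-136908138, 33 bases before the start): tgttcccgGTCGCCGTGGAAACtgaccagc
Distances are from the start in the RefSeq table. For Nphp4, Tmem216 and Ift57 that start is not the one of the annotation used for gene positions (GENCODE M21). The matches of Nphp4 and Tmem216 lie within their annotated genes (chr4:152476706-152563183 and chr19:10533865-10556238). The annotated start of Ift57 (chr16:49699233) is nearer to its match than the RefSeq start. A match is a description of the letters, not a binding site. Other members named below had no paired match in this window, namely Ift172, Ift140, Bbs5, Ift20, Ift52, Ift43, Ift27, Dync2h1, Bbs10 and Cc2d2a. Ift122, Dync2li1 and Tmem67, also named below, had no promoter entry.

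All 37 genes were well detected, with at least 43 counts in every library against a floor of 3. Compared per kilobase of exon, the level was highest for Ift20, the subunit that also works at the Golgi, at 24.3 CPM per kb (20.6 to 30.2 over 22 libraries), followed by Ift172, a large peripheral subunit of IFT-B, at 11.8, Ift22, a small GTPase-like subunit, at 11.4, and Ift57, a subunit that stabilises the IFT-B complex, at 9.84. The lowest were Tmem67 (meckelin) at 1.42 CPM per kb and Tmem216 at 1.51, both membrane proteins of the gate, then Bbs10, a chaperonin-like gene, at 1.74 and Mks1, a B9-domain protein of the gate, at 1.86. Ift20 lay apart from the next gene, since its lowest library was above the highest library of Ift172 (13.5 CPM per kb), whereas the ranges of Ift172, Ift22 and Ift57 overlapped, as did those of the 4 lowest genes. IFT-B subunits took the first 6 places and transition zone genes 5 of the last 6. For Tctn1, 25.47% of exon bases are shared with Gm15481 and Hvcn1 on the other strand, and because reads were counted without strand its level is uncertain. Reads that could not be assigned to a single gene were left out, while the shared bases stayed in its length. Its level per kb, and so its place among the last 6, may therefore be too low. Another 6 genes share between 1.31% and 7.86% of their exon bases with a neighbour, and 30 share none.

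**Figure D1:**
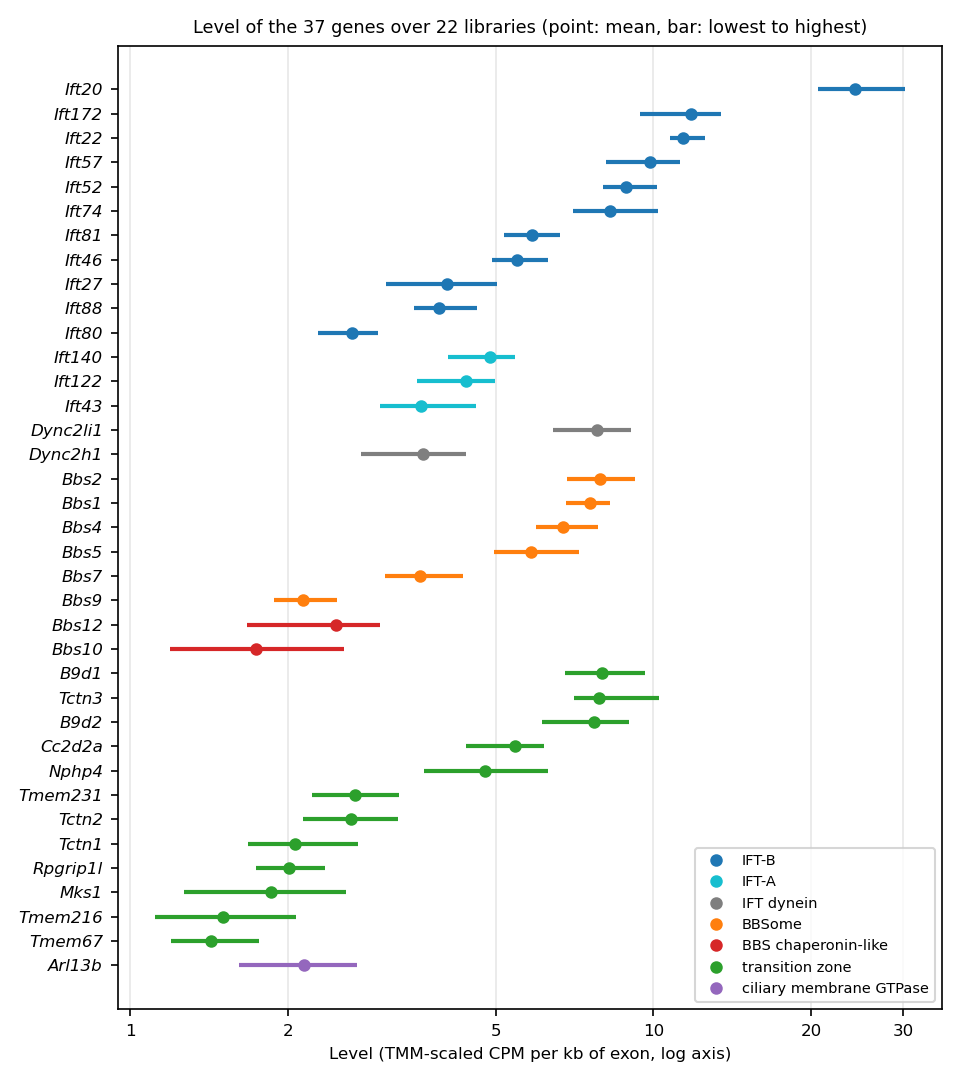
Mean level of each of the 37 genes (point) with its lowest and highest library (bar) over 22 libraries, in TMM-scaled CPM per kilobase of exon on a log axis, grouped by role. Ift20 stands highest at 24.3 and Tmem67 lowest at 1.42, and most bars are short beside the distance between genes.

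Library to library, the levels of these genes varied little. Their summed level ran from 914 to 999 CPM over the 22 libraries, a ratio of 1.09 between the highest and the lowest. The same ratio, which also depends on how many genes are summed, was 1.13 for further IFT and motor genes, 1.17 for further BBSome and transition zone genes and for the 8 neuronal markers, 1.195 for 6 astrocyte markers, 1.75 for 16 motile axoneme genes, 1.95 for the ependymal markers and 126 for the choroid plexus markers. Gene by gene, the ratio of highest to lowest library had a median of 1.43, was under 1.5 for 26 of 37, and ran from 1.17 for Ift22 to 2.15 for Bbs10, with Mks1 (2.04) the only other at 2 or more. The biological coefficient of variation, the spread between libraries of a group beyond counting noise, had a median of 9.35% over the 37 and of 12.0% over the 18482 genes tested, and 31 of the 37 lay under that second value. It was smallest for Ift22 (6.08%) and largest for Mks1 (15.9%). No comparison with genes of matched level was made. By group, the summed level was 929 ± 11.9 CPM in WT SH (SD, n = 6), 966 ± 25.4 in WT EE (n = 5), 938 ± 17.4 in KD SH (n = 6) and 951 ± 20.5 in KD EE (n = 5), and the 4 ranges overlapped. The 12 transition zone genes summed to 216 ± 2.78 CPM in WT SH (213 to 220), 233 ± 14.5 in WT EE (217 to 255), 216 ± 10.7 in KD SH (204 to 234) and 226 ± 11.8 in KD EE (206 to 237). For the 11 IFT-B genes the means were 356 ± 5.46, 368 ± 13.1, 368 ± 7.90 and 362 ± 8.31 CPM in that order, and for the 6 BBSome genes they were 171 ± 5.58, 170.2 ± 4.89, 173 ± 3.11 and 172 ± 4.15. The gate genes spread most within WT EE, while the BBSome means lay within 1 SD of each other. In bulk tissue, a change in the number of cells of a type and a change in RNA per cell cannot be told apart.

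The first comparison asks which cilium genes responded to enrichment in WT mice. None of the 37 was called by the edgeR quasi-likelihood test, in which a call needs a Benjamini-Hochberg adjusted p of 0.05 or less and a log2 fold change of at least 0.38 in size (1.3-fold), and 0% of the 18482 genes tested were called either. At an unadjusted p under 0.05 there was 1 member, Ift172, where 8.65% of all genes passed. The 95% intervals were narrow: for 34 of 37 (91.9%) the whole interval lay within the 1.3-fold threshold, against 57.3% of all genes, and the other 3 were Mks1, Tmem216 and Nphp4, all in the transition zone. The width of an interval also depends on the level of a gene. No share among genes of matched level was taken, here or in the comparisons below. The median log2 fold change was 0.048 over the members and 0.0062 over all genes. All 12 transition zone genes had positive values, with a median of 0.11 and none called, while the 11 IFT-B subunits had a median of 0.017 and the 6 BBSome subunits one of 0.0042. Genes of a role are measured in the same libraries and are not independent. The direction of such a set was not tested, here or below.

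Ift172 (chr5:31253277-31291116, - strand, GRCm38) was at 62.5 to 79.2 CPM in WT SH (median 75.6, n = 6) and at 74.1, 85.0, 88.0, 88.8 and 89.2 CPM in WT EE. In WT EE 4 libraries lay above all of WT SH and the other, 33A, lay inside its range, so the groups overlapped. The difference on the log2 scale was 0.20 (SE 0.069, adjusted p = 0.414, 95% interval 0.057 to 0.34). Tctn2 (chr5:124598749-124627738, + strand), a tectonic of the transition zone, was at 20.1 to 23.6 CPM in WT SH (median 21.0, n = 6) and at 20.5, 22.3, 25.2, 25.6 and 26.9 CPM in WT EE. Here the low values of WT EE were those of 31B and 35A, the libraries with the fewest ependymal and choroid plexus transcripts in that group, and the other 3 lay above every WT SH library. Its difference was 0.17 in log2 (SE 0.085, adjusted p = 0.605). Tctn1, another tectonic, differed by 0.18 in log2 (SE 0.094, adjusted p = 0.622), with 13.9 to 19.1 CPM in WT SH and 16.4 to 22.6 in WT EE, and without library 17, the highest, the log2 difference was 0.094. No member had groups without overlap in this comparison, where 1.19% of all genes did.

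In MSK1 KD mice, enrichment again gave 0 of 37 calls, with 0% of all genes called. At an unadjusted p under 0.05, 2 members had higher and 1 had lower values in EE, where 9.63% of all genes passed. The interval lay within the threshold for 32 of 37 (86.5%, all genes 55.4%), and the median log2 fold change was -0.010 (all genes 0.0028). The 11 IFT-B subunits had a median of -0.058 and 10 of them were below 0, the 3 IFT-A subunits were above 0 with a median of 0.16, and 8 of the 12 transition zone genes were above 0.

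Bbs5 (chr2:69647171-69667571, + strand), the BBSome subunit that binds membrane lipids, was at 13.7 to 17.6 CPM in KD SH (median 15.1, n = 6) and at 12.9, 13.1, 13.4, 13.5 and 13.8 CPM in KD EE. The KD EE libraries were close together and only the highest of them reached into the range of KD SH. The log2 fold change was -0.22 (SE 0.086, adjusted p = 0.478). Ift140 (chr17:25016085-25099495, + strand), a core subunit of IFT-A, was at 33.8 to 42.6 CPM in KD SH (median 36.6, n = 6) and at 39.8, 40.7, 41.0, 42.9 and 45.4 CPM in KD EE, the highest being library 9. Its log2 fold change was 0.16 (SE 0.060, adjusted p = 0.478), and 4 of the 6 KD SH libraries lay below all of KD EE. Tmem67 (chr4:12039355-12090020, - strand) was at 9.64 to 11.5 CPM in KD SH (median 10.5, n = 6) and at 10.7, 10.7, 12.1, 13.1 and 13.6 CPM in KD EE, a log2 difference of 0.21 (SE 0.086, adjusted p = 0.480). Its low pair of KD EE libraries, 8 and 9, lay within KD SH and the other 3 above it. No member's groups were free of overlap, and 0.546% of all genes had such groups.

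**Figure D2:**
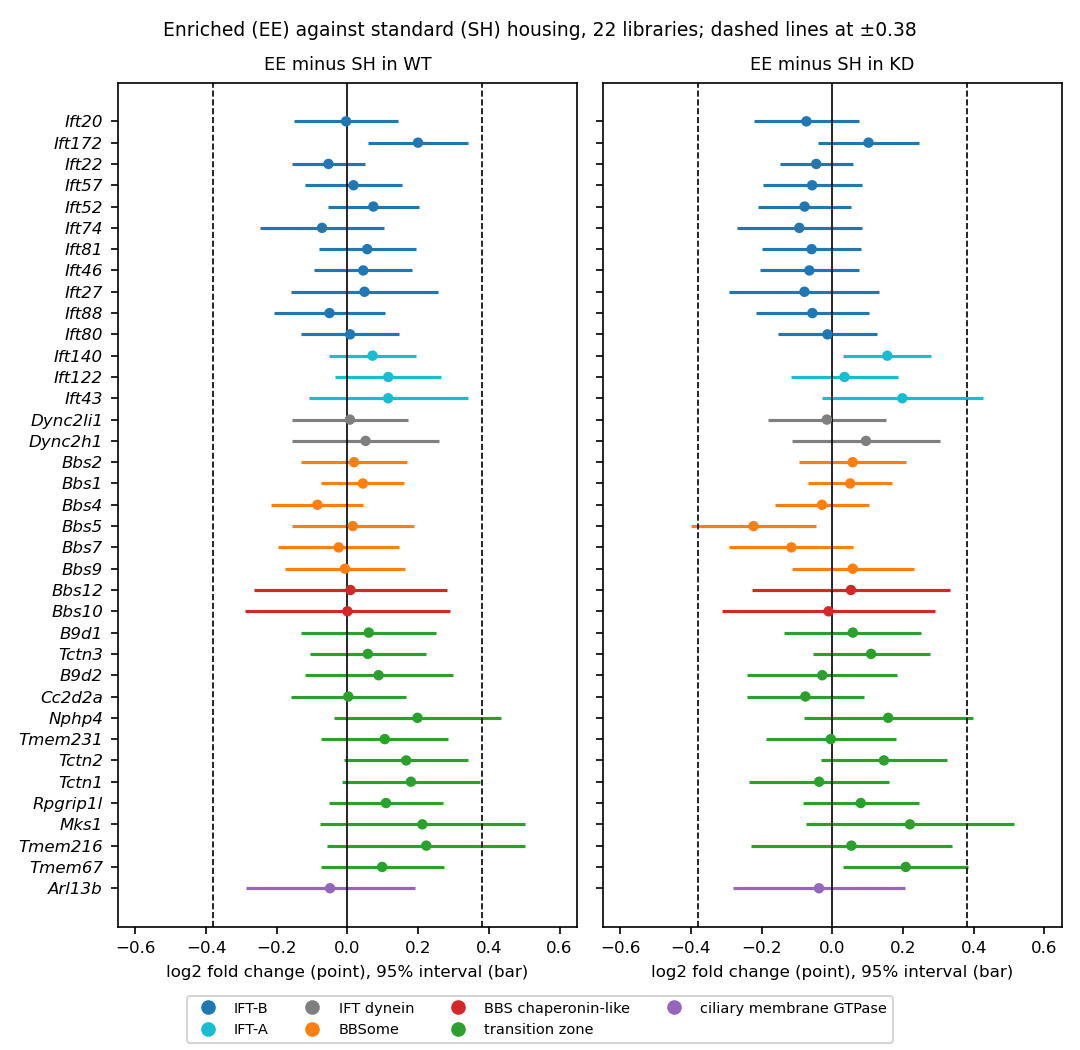
Log2 fold change of EE against SH (point) with its 95% interval (bar) for each gene, in WT on the left and MSK1 KD on the right, over 22 libraries. The intervals of 34 genes in WT and of 32 in MSK1 KD lie between the dashed lines at -0.38 and 0.38, and those that reach outside belong mostly to the transition zone.

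Averaged over genotypes, the housing contrast had 0 of 37 calls, where 0.146% of all genes were called, and 36 intervals lay within the threshold (97.3%, all genes 66.8%). The median over the members was 0.030 (all genes 0.0047). At an unadjusted p under 0.05 there were 6 members (all genes 16.1%), each higher in EE: Ift172, Ift140, Tctn2, Tmem67, Nphp4 (nephrocystin-4) and Mks1, 4 of them in the transition zone. The smallest adjusted p was that of Ift172, at 0.15 in log2 (SE 0.049, adjusted p = 0.120), followed by Ift140 with 0.11 (SE 0.043, adjusted p = 0.178) and Tctn2 with 0.16 (SE 0.061, adjusted p = 0.195). The ependymal and choroid plexus sums had higher medians in EE in both genotypes. With the choroid plexus score as a covariate Tctn2 fell to 0.029 (SE 0.055), while Ift172 was at 0.16 (SE 0.058) and Ift140 at 0.13 (SE 0.051). With the ependymal score alone Tctn2 was at 0.13 (SE 0.046), Ift172 at 0.16 (SE 0.049) and Ift140 at 0.12 (SE 0.043), and with both scores Tctn2 was at 0.086, Ift172 at 0.095 and Ift140 at 0.12. Their part in the housing values was not tested further.

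The second pair of comparisons asks whether loss of MSK1 kinase activity altered these genes. In standard housing 0 of 37 were called (0% of all genes) and 0 passed an unadjusted p of 0.05 (all genes 5.76%). The median log2 fold change was 0.017 (all genes 0.0064), and 35 intervals lay within the threshold (94.6%, all genes 60.1%), those of Tmem216 and Bbs10 being the exceptions. All 11 IFT-B subunits had values above 0 (median 0.045), none of them called. The smallest p was that of Bbs5, whose KD SH values are given above, with 12.1 to 17.2 CPM in WT SH (median 13.6, n = 6) and a log2 difference of 0.16 (SE 0.080, adjusted p = 0.811). Its overlap with KD SH rested on 1 WT SH library, 14, at 17.2 CPM, the next highest being 13.7. Ift140 differed by -0.11 in log2 (SE 0.057, adjusted p = 0.811) and was at 36.8 to 42.0 CPM in WT SH.

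Tmem216 had the largest difference of the 37 in size between genotypes in standard housing. The gene (chr19:10533865-10556238, - strand) was at 3.66 to 5.29 CPM in WT SH (median 4.25, n = 6) and at 4.55 to 5.64 in KD SH (median 5.18, n = 6), and the groups overlapped. The log2 fold change was 0.24 (SE 0.13, adjusted p = 0.811), with a 95% interval from -0.025 to 0.51. In the same comparison 0.276% of all genes, and no member, had groups without overlap.

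Under enrichment the genotypes again differed in 0 of 37 calls (0% of all genes), 0 at an unadjusted p under 0.05 (all genes 2.61%), a median of -0.0053 (all genes -0.0024) and 36 of 37 intervals within the threshold (97.3%, all genes 57.9%). The smallest p was that of Bbs4, a BBSome subunit that also works at the centriolar satellites, with 36.6, 36.7, 37.6, 38.2 and 41.4 CPM in WT EE and 38.4, 39.3, 42.5, 42.7 and 43.7 CPM in KD EE. Of the KD EE libraries 3 lay above all of WT EE, and the log2 fold change was 0.11 (SE 0.067, adjusted p = 1). Ift122, a core subunit of IFT-A, had -0.12 (SE 0.077, adjusted p = 1), and Cc2d2a, a gate protein with a C2 domain, -0.12 (SE 0.084, adjusted p = 1), which was -0.066 without library 36A and -0.19 without 32A. Both had overlapping groups, at 45.7 to 51.5 against 39.6 to 48.4 CPM for Ift122 and 31.8 to 41.6 against 29.8 to 40.9 for Cc2d2a in WT EE and KD EE. Groups without overlap were found for 0 members and 0.325% of all genes. Averaged over housings, all 37 intervals lay within the threshold (all genes 70.2%), with 0 calls (0% of all genes), 0 members at an unadjusted p under 0.05 (all genes 6.06%), and a lowest adjusted p of 0.803 for Bbs4 (log2 fold change 0.086, SE 0.045).

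**Figure D3:**
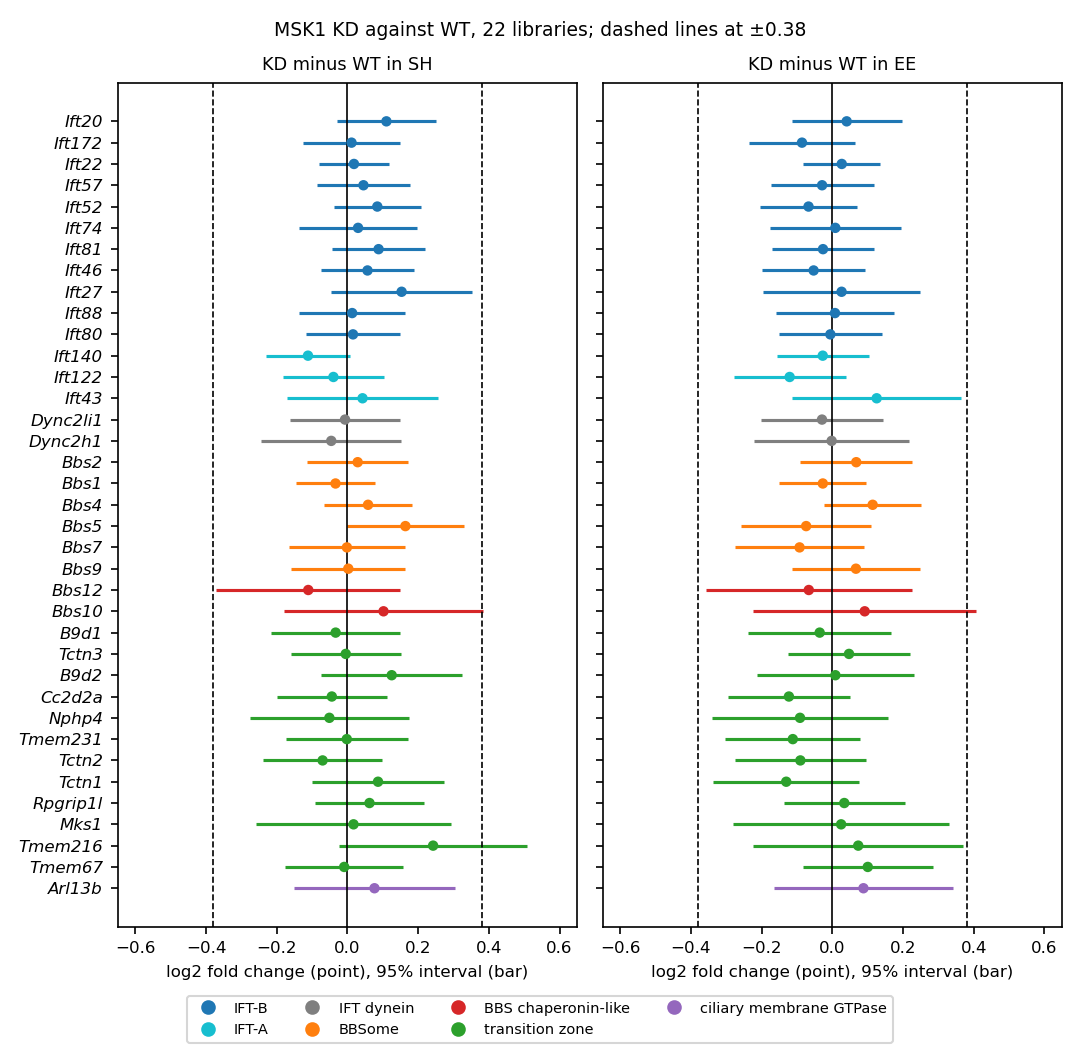
Log2 fold change of MSK1 KD against WT (point) with its 95% interval (bar) for each gene, in SH on the left and EE on the right, over 22 libraries. The intervals of 35 and 36 of the 37 genes lie between the dashed lines at -0.38 and 0.38, and the points of the 11 IFT-B genes run from 0.012 to 0.15 in SH and from -0.086 to 0.041 in EE, a difference that was not tested for the group.

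The interaction, which asks whether the response to enrichment differed between genotypes, called 0 of 37 (0% of all genes), with 0 members at an unadjusted p under 0.05 (all genes 2.04%). Its intervals are wider, and 28 of 37 lay within the threshold (75.7%, all genes 45%). The median was -0.021 (all genes -0.0038), and 10 of the 11 IFT-B subunits were below 0. The smallest p was that of Bbs5, at -0.24 (SE 0.12, adjusted p = 1, 95% interval -0.48 to 0.0089), followed by Ift52, a core subunit of IFT-B, at -0.15 (SE 0.089, adjusted p = 1) and Tctn1 at -0.22 (SE 0.13, adjusted p = 1). The housing and genotype contrasts share groups, so their values for a gene are not independent. By the Wald test of DESeq2 the 7 contrasts also gave 0 calls among the 37, with 1, 3, 0, 0, 0, 6 and 0 members at an unadjusted p under 0.05 in the order WT housing, KD housing, genotype in SH, genotype in EE, interaction, housing averaged and genotype averaged. Over all genes the same test made 23, 2, 2, 0, 0, 220 and 0 calls in that order.

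**Figure D4:**
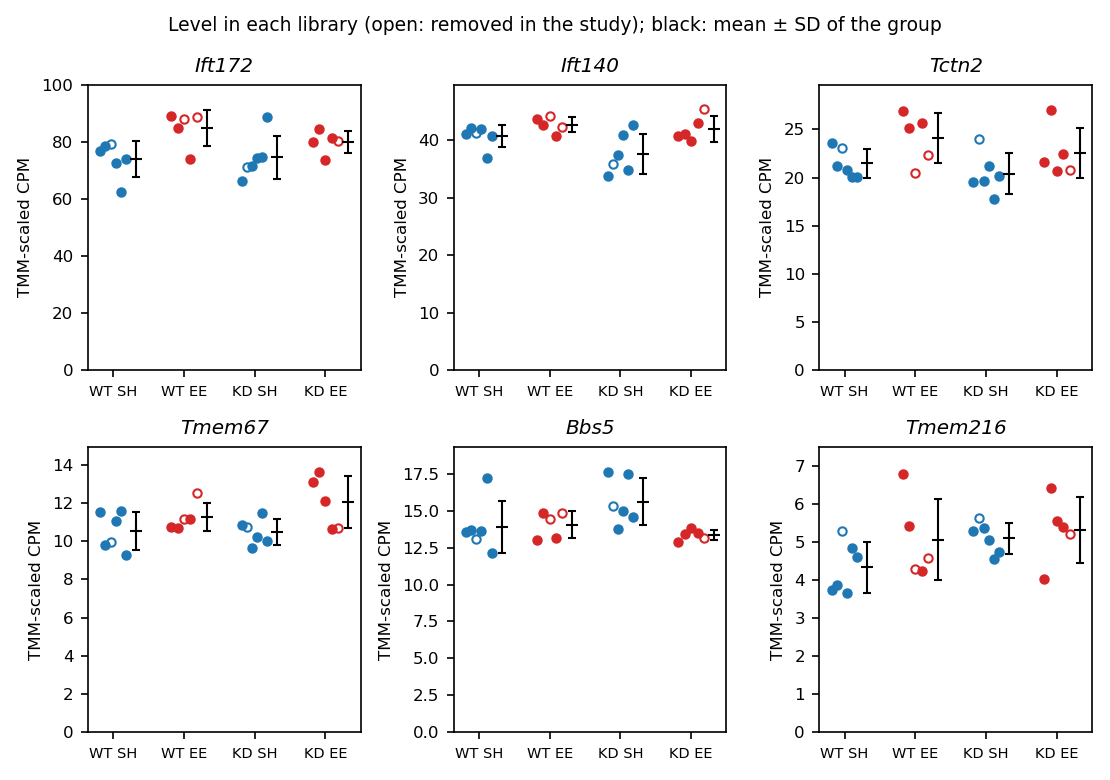
Level in every library of 6 genes among the lowest p of a comparison, in TMM-scaled CPM with axes from 0; open circles are the 5 libraries the study left out, and black marks are group mean ± SD. The groups overlap in every panel, and the open WT EE circles of Tctn2 at 20.5 and 22.3 lie within WT SH.

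With the 17 libraries of the study, 0 of 37 were again called in each of the 7 contrasts, although far more of the transcriptome was: 3.55% of 18701 genes for housing in WT, 1.74% for housing in KD, 3.85% for housing averaged, 0.00535% for genotype in EE, and 0% for the others. Tctn2 was the only member past an adjusted p of 0.05, in the averaged housing contrast, at 0.26 in log2 (SE 0.060, adjusted p = 0.0093), which is under the fold threshold. In WT its value was 0.29 (SE 0.088, adjusted p = 0.0713) and that of Mks1 was 0.44 (SE 0.14, adjusted p = 0.0932), the 2 lowest p of the members there. Groups without overlap were found in WT for 4 members, Tctn2, Mks1, Dync2li1 and Ift43, all higher in EE, a share of the 37 close to the 12.4% of all genes with 5 against 3 libraries. In EE, Bbs4 was higher and Ift52 and Dync2li1 lower in KD without overlap (all genes 6.41%). In KD housing and in SH there was no such member (all genes 3.11% and 1.02%). At an unadjusted p under 0.05 there were 4 members for housing in WT (all genes 13.7%), 4 for housing in KD (11.3%), 0 for genotype in SH (4.95%), 2 for genotype in EE (6.4%), 1 for the interaction (5.51%), 5 for housing averaged (17.2%) and 2 for genotype averaged (6.1%). The intervals within the threshold numbered 28 for housing in WT (all genes 47.7%), 30 for housing in KD (52.2%), 35 for genotype in SH (58.6%), 28 for genotype in EE (49%), 19 for the interaction (33%), 34 for housing averaged (62.8%) and 37 for genotype averaged (66.4%).

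The smaller set lacks 31B and 35A of WT EE and library 12 of WT SH, and the values of 2 of these genes show where those libraries lay. Mks1 was at 6.51 to 8.17 CPM in WT SH (median 6.61, n = 6) and at 6.31, 6.57, 7.36, 9.77 and 10.3 CPM in WT EE. The lowest pair were 31B and 35A, and the WT SH maximum was library 12, above 33A (7.36 CPM), so these groups overlap unless library 12 is left out too. Dync2li1 was at 14.1 to 15.4 CPM in WT SH (median 14.6, n = 6) and at 12.0, 12.9, 15.7, 15.9 and 16.97 CPM in WT EE, again with 35A and 31B lowest, here below every WT SH library. In KD SH it was at 13.4 to 15.4 CPM (median 14.6, n = 6) and in KD EE at 13.3, 14.1, 14.1, 15.1 and 15.3 CPM, so the KD groups covered nearly the same range.

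Genes outside the 37 but of the same machinery behaved alike in count. Of 15 further IFT and motor genes tested and 16 further BBSome and transition zone genes, 0 were called in any contrast with 22 libraries, and with 17 libraries 1 was, Tmem237, a membrane protein of the transition zone, at 0.55 in WT (SE 0.098, adjusted p = 0.000912), 0.39 in KD (SE 0.092, adjusted p = 0.0238) and 0.47 averaged over genotypes (SE 0.067, adjusted p = 4.34e-05). The 15 ciliary receptor and hedgehog genes gave 0 calls in both sets. Motile axoneme genes, which primary cilia do not use, had 0 of 16 calls with 22 libraries and 8 of 16 with 17 libraries for housing in WT, all higher in EE, among them Spag16, a central apparatus protein, at 1.63 (SE 0.23, adjusted p = 8.28e-05) and Dnaic2, a dynein intermediate chain, at 1.01 (SE 0.16, adjusted p = 0.000286). Foxj1, the transcription factor that drives motile ciliogenesis and 1 of the ependymal markers, was at 0.79 in WT (SE 0.13, adjusted p = 0.000434) and 0.75 in KD (SE 0.12, adjusted p = 0.000896) in the same set.

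Libraries of the same group differ in how many ependymal and choroid plexus transcripts they hold, and the last comparison asks which of the 37 genes follow them. A list's score averages log2 CPM over its markers, and the slope is the log2 change of a gene per unit of score within groups. On the ependymal score 1 of 37 was called at an adjusted p of 0.05, while 5.39% of all genes were (4.8% upward). The median slope was 0.080 over the members and -0.0093 over all genes. The called gene was Tctn2, with a slope of 0.31 (SE 0.068, adjusted p = 0.00457). The next steepest were Mks1 at 0.26 (SE 0.14, adjusted p = 0.351), Tmem216 at 0.26 (SE 0.14, adjusted p = 0.329) and Dync2li1, the light intermediate chain of the IFT dynein, at 0.22 (SE 0.076, adjusted p = 0.0965). The heavy chain of the same motor, Dync2h1, had a slope of -0.21 (SE 0.100, adjusted p = 0.270).

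The values of Tctn2 by library differed between groups in how far they followed the ependymal sum. Its slope was fitted on the score, a mean of log2 values, and not on this sum. In WT EE it was at 25.2, 25.6 and 26.9 CPM in libraries 17, 33A and 16, where the ependymal sum was 90.4, 104 and 99.3 CPM, and at 20.5 and 22.3 in 31B and 35A, where that sum was 54.6 and 53.2. In KD SH its highest value, 24.1 CPM, was in library 2, which had the highest ependymal sum of that group, and in KD EE its highest, 27.0, was in library 36A, which had the highest there (87.4 CPM). The other KD SH libraries did not follow the sum: library 5 was at 17.8 CPM with a sum of 70.2, and library 3 at 19.7 with 61.4. By score, however, library 5 was the lowest of KD SH (-0.306). Libraries 4 and 2 were the highest by score (0.0518 and 0.547) and also by Tctn2 (21.2 and 24.1 CPM). Between them, libraries 6, 3 and 1 had rising scores (-0.220, -0.137 and -0.0469) but Tctn2 at 20.2, 19.7 and 19.6 CPM. In KD EE the libraries other than 36A were at 20.7 to 22.5 CPM. In WT SH, where the ependymal sum only ran from 63.8 to 74.8 CPM, its highest value, 23.6 in library 10, did not go with the highest sum. On the choroid plexus score Tctn2 was again the only member called, at 0.053 (SE 0.012, adjusted p = 0.00597), where 6.06% of all genes were called (5.13% upward). These scores vary together, and with both in 1 fit neither slope of Tctn2 passed (0.19, SE 0.14, adjusted p = 1 for ependyma and 0.024, SE 0.025, adjusted p = 0.921 for choroid plexus), so the 2 sources cannot be told apart. With 17 libraries the ependymal slope of Tctn2 was 0.48 (SE 0.20, adjusted p = 0.657) and 0% of all genes were called, and on the choroid plexus score 0 members were (all genes 0.257%, 0.252% upward).

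Motile axoneme genes gave a different count on the same score. The ependymal markers include motile cilium genes themselves, such as Rsph1, Tekt1, Ccdc39 and Foxj1. A rise of axoneme genes with this score was therefore partly built in, and the counts do not test primary against motile cilia. On the ependymal score, 10 of 16 axoneme genes were called, all upward, with a median slope of 0.71. They were led by Dnah6, an axonemal dynein heavy chain, at 1.74 (SE 0.14, adjusted p = 1.72e-08), Cfap43 at 1.28 (SE 0.11, adjusted p = 3.28e-08) and Spag16 at 2.03 (SE 0.20, adjusted p = 1.49e-07). Among further genes of the primary cilium, 1 of 15 IFT and motor genes, Ttc30b, was called at 0.36 (SE 0.072, adjusted p = 0.00186), and 2 of 16 BBSome and transition zone genes were, among them Tmem237 at 0.63 (SE 0.081, adjusted p = 4.43e-06). Members with the paired promoter letters had a median ependymal slope of 0.11 (12 genes, -0.083 to 0.31) and those without one of 0.060 (20 genes, -0.21 to 0.21), with overlapping ranges. For housing in WT the medians were 0.097 and 0.032, and the order was the opposite for housing in KD (-0.016 and 0.021), genotype in SH (0.018 and 0.029) and genotype in EE (-0.028 and 0.0082).

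**Figure D5:**
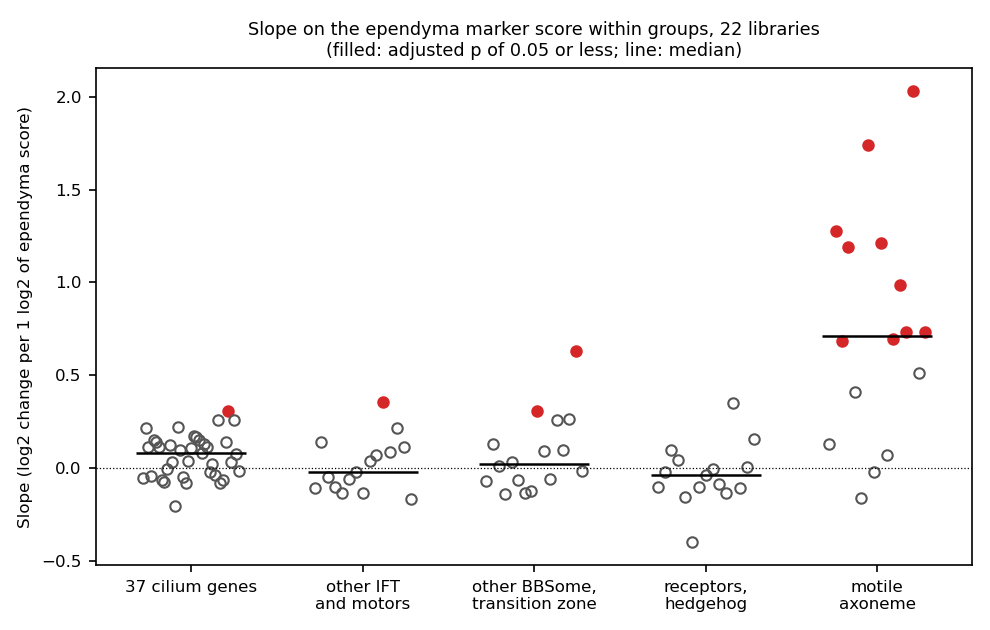
Slope of each gene on the ependymal marker score within groups over 22 libraries (log2 change per unit of score), with filled points for an adjusted p of 0.05 or less and lines at the median of each list. Filled are 1 of the 37 cilium genes, Tctn2 at 0.31, and 10 of 16 motile axoneme genes, whose median is 0.71. The score itself is built in part from motile cilium genes.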

How the data were processed

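Libraries of polyadenylated RNA were sequenced as paired reads by the authors, trimmed with Skewer, aligned to GRCm38 with STAR 2.5 and assigned to gene symbols by HTSeq, ignoring strand. The deposited values are raw read counts in 24 files. Of the counted total, 14.0% to 18.6% in the 22 libraries compared (54.1% in 33B and 56.0% in 34B) fell outside single genes and was left out. A table of counts divided by size factors for 17 libraries was not used. Genes were filtered with filterByExpr by group, and edgeR 4.0.16 (R 4.3.3) fitted 1 mean per group to 22 libraries with TMM scaling. Intervals are 95%. Floors of 3 counts (0.0541 to 0.334 CPM) cover counting error only. Within groups, 60 pairs of libraries were compared and 0 were identical. The labels do not name single animals, so p-values measure the spread between these samples. Exon lengths came from GENCODE M21 and count every base that lies in an exon of any transcript of the gene. The fit was tested on simulated data. DESeq2 1.42.0 was an alternative, and figures used matplotlib 3.10.9. The members, gene lists and tests were chosen with earlier results of these data known. Members are named in full if they were called, had 1 of the 3 lowest p of a comparison, the 4 highest or lowest levels per length or the 4 steepest ependymal slopes, or stood apart in a group. From other lists up to 3 genes are named by lowest p. Of 18 motile axoneme symbols, 16 were found under those names. The value of 1 gene of these lists is not reported here.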

Additional observations from a re-analysis of the deposited data

Results flagged for a closer look

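In 37 genes and 4 groups, 148 sets of 5 or 6 libraries were examined for a highest or lowest library separated from the others by more than Dixon's 95% critical value. The number set apart was 11, where chance gives 7.4, and 8 libraries held them. In WT SH, library 14 was low for Ift140 (36.8 CPM) and high for Bbs5 (17.2). In WT EE, 33A was low for Ift172 (74.1), 31B low for Ift43, an IFT-A subunit (4.96), and 35A low for Ift57 (25.9) and high for Tmem67 (12.5). In KD SH, library 6 was high for Ift172 (89.0) and Tctn1 (19.9). In KD EE, library 8 was high for Ift27, a small GTPase of IFT-B (13.2), library 7 high for Bbs10 (7.81), and 36A high for Tctn2 (27.0). The fits keep all of these libraries.

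Library 33B, which failed quality control and enters no comparison, had at least 3 counts for all 37 genes. Scaled with all 24 libraries, 2 members were above the highest of the 22 there, Dync2h1 (77.8 against 71.7 CPM) and Cc2d2a (43.1 against 42.2), and 6 were below the lowest, the farthest being Tmem216 (2.55 against 3.66). Library 34B held 16442 counts, 11 of them on these genes, and listed 30 of the 37 at 0.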

How the results depend on the processing

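Under the 33 or 34 alternatives run for each contrast, including DESeq2, other filters and scalings, other library sets and marker scores as covariates, the number of members called stayed at 0 in each of the 7 contrasts. With 17 libraries the median log2 fold change of the members moved to -0.046 for genotype in EE and -0.068 for the interaction. Without lettered libraries (no 31B, 32A, 33A, 35A, 36A) it moved to 0.14 for housing in WT, -0.068 for genotype in EE and -0.14 for the interaction, and the intervals within the threshold dropped to 19, 21 and 11. The lettered libraries were all from EE and none from SH, and what the letters stand for is not given. Leaving them out kept only libraries 16 and 17 in WT EE and libraries 7, 8 and 9 in KD EE. With both marker scores as covariates the median for housing in KD was 0.034. Calls on each marker slope fell from 1 to 0 with 17 libraries, without lettered libraries and with the other score in the fit. Leaving out 1 library gave 1 to 2 calls on either slope: without 36A, Dync2li1 joined on the ependymal score (0.26, adjusted p = 0.0311), and without 1 or 33A, Dync2h1 on the choroid plexus score (-0.051 and -0.059). Adjusted p of the ependymal slope of Tctn2 ranged from 0.00243 to 1, being 0.26 without lettered libraries. Without library 6, Ift172 had an adjusted p of 0.0425 for housing averaged (0.18), under the fold threshold. Ependymal slopes reversed with 17 libraries for Mks1 (-0.18) and Dync2li1 (-0.065). The causes were not tested. Scaling by DESeq2 size factors shifted all genes by at most 0.0099 in log2. No paired analysis was possible because the groups share no library numbers.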
